A study of Homo sapiens with 12 samples.

Results

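The interferon-stimulated effector genes described here are 41 human genes, chosen by name with earlier results of these data known. They were found by gene symbol in both expression tables, among 58735 genes listed for the line 786-O and 29890 listed for the line 5637. They hold antiviral RNA-binding proteins, membrane proteins, GTPases, the ISG15 modifier system, transcription regulators, chemokines and other effectors. Gene expression was measured by RNA-seq in 12 libraries, 3 in each of 4 groups. These were 786-O cells with a short hairpin against CBX7 (shCBX7), 786-O cells with a control hairpin (sh control), 5637 cells with shCBX7 and 5637 cells with sh control. 786-O is a line from a clear cell renal carcinoma and 5637 a line from a bladder carcinoma, and all 4 groups were cultured in the same serum-supplemented medium with no further treatment in the labels. The chromobox protein CBX7 belongs to Polycomb repressive complex 1, which helps to keep genes silent. No source used here gives the hairpin sequence, the number of hairpins or clones or the time after silencing, and in the table headers the silenced and control arms are written si and not sh. The sources do not call the libraries of a group separate cultures, so p-values reflect the spread of these libraries alone, and that spread may be technical.

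Interferons are secreted proteins that bind receptors on the cell surface, and the receptor-bound kinases JAK1 and TYK2 then phosphorylate transcription factors, among them STAT2. Together with IRF9, STAT2 is part of the complex ISGF3, which binds the interferon-stimulated response element, a pair of GAAA-type repeats before many of the genes described here. The products hinder viral entry, translation and egress, tag proteins with ISG15, or feed back on the pathway, and tumour cells can express them without infection.

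Expression was given in FPKM, that is fragments per kilobase of gene scaled to the size of the library, so levels can be set side by side between genes per length. CBX7 itself had 1.01, 0.892 and 1.07 FPKM in the shCBX7 libraries, against 1.63, 1.75 and 1.49 FPKM in the control libraries of 786-O, which left 61.0% of the control mean (limma log2 change -0.40, SE 0.076, adjusted p = 0.00364). In 5637 it had 1.86, 1.80 and 1.97 FPKM in the shCBX7 libraries, against 2.19, 2.17 and 2.42 FPKM in the control libraries, which left 83.3% (limma log2 change -0.18, SE 0.046, adjusted p = 0.0188). The shCBX7 libraries lay below every control library in both lines, but the 5637 call was lost without shCBX7 library 2 (log2 change -0.16, limma adjusted p = 0.0608) or without control library 3 (log2 change -0.14, limma adjusted p = 0.0586). Reads recovered from the FPKM steps came to 16384151 to 18868874 per library in 786-O and 17744835 to 29198095 in 5637. In 5637, 2 of the 3 control titles show a different number, although the cell line label reads 5637. Of the markers of the labelled origin, PAX8, a renal lineage factor, averaged 30.3 FPKM in shCBX7 and 37.8 FPKM in control libraries of 786-O. LHX1, PAX2 and CDH16 averaged 3.31, 1.14 and 1.01 FPKM in its control libraries, while CA9, CUBN, LRP2 and AQP1 were below 1 FPKM in every 786-O library. KRT5, a basal urothelial keratin, averaged 265 FPKM in shCBX7 and 189 FPKM in control libraries of 5637. KRT17, KRT7, PPARG and GATA3 averaged 209, 246, 44.5 and 11.6 FPKM in its control libraries, while the uroplakins UPK2 and UPK3A and KRT20 were below 1 FPKM in every 5637 library. The leukocyte genes PTPRC and CD3E were at 0 in all 786-O libraries.

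In 786-O, nearly the whole group had higher levels with shCBX7 than with sh control. Of the 41 genes, 39 had a mean of at least 0.5 FPKM over the 6 libraries and were tested with limma on log2(FPKM + 1), and 38 rose at a Benjamini-Hochberg adjusted p under 0.05 over all genes. None of the 39 log2 changes was below 0, so 0 fell by limma, also at an unadjusted p under 0.05, and 0 fell with voom on recovered reads. Among all 13220 genes tested in that line, 24.7% were called higher and 26.2% lower. The median log2 change of the tested group members was 1.27, with a range of 0.22 to 3.58, against a median of -0.01 over all tested genes. A log2 change of at least 1 was reached by 27 of the 39, against 2.10% of all tested genes, so that 27 of the 278 genes past that size (9.71%) came from the group. All 39 tested members had a control mean of at least 0.607 FPKM, so none passed the filter through the silenced arm alone. In bulk RNA, more cells that carry a message and more message per cell cannot be told apart. As the number of hairpins is not given, loss of CBX7 and any other effect of the hairpin cannot be told apart either.

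**Figure D1:**
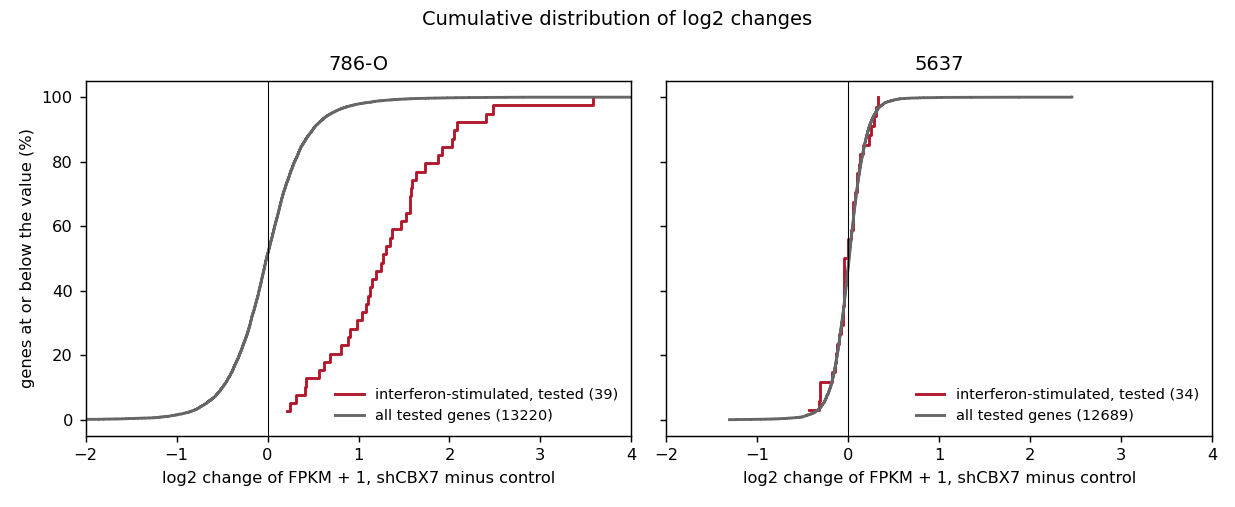
Distribution of limma log2 changes, shCBX7 minus control on log2(FPKM + 1), for the interferon-stimulated genes and for all tested genes in 786-O (left) and 5637 (right). In 786-O the group has a median of 1.27 against -0.01 for all genes, while in 5637 the medians are -0.02 and 0.01.

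IFITM1, a membrane protein that blocks entry of enveloped viruses, had the largest rise of the group and the second largest of all tested genes in 786-O. It had 86.8, 82.8 and 73.7 FPKM in the shCBX7 libraries, against 7.21, 4.55 and 6.06 FPKM in the control libraries, 13.7 times the control mean (limma log2 change 3.58, SE 0.137, adjusted p = 2.25e-06). The lowest shCBX7 library stood far above the highest control library. CXCL11, a chemokine that attracts activated T cells, was next, with 10.0, 9.93 and 10.9 FPKM in the shCBX7 libraries, against 1.19, 0.886 and 0.984 FPKM in the control libraries (limma log2 change 2.48, SE 0.073, adjusted p = 7.03e-07). Its silenced mean was 10.1 times the control mean. CXCL10, the neighbouring chemokine gene, had 2.73, 2.70 and 2.19 FPKM in the shCBX7 libraries, against 1.63, 1.81 and 1.55 FPKM in the control libraries (limma log2 change 0.41, SE 0.084, adjusted p = 0.00490), a much smaller rise with arms that also did not overlap.

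ISG15, the ubiquitin-like modifier, reached 1152, 1069 and 1101 FPKM in the shCBX7 libraries, against 239, 187 and 206 FPKM in the control libraries (limma log2 change 2.40, SE 0.087, adjusted p = 1.86e-06). Every silenced library stood far above every control library. IFI27, a mitochondrial protein, had 89.1, 94.5 and 93.0 FPKM in the shCBX7 libraries, against 21.7, 20.7 and 20.7 FPKM in the control libraries (limma log2 change 2.08, SE 0.045, adjusted p = 2.25e-07), with little spread inside either arm. IFI6, another mitochondrial protein that restrains cell death, was the most abundant message of the group per length, at 2879, 2960.1 and 3095 FPKM in the shCBX7 libraries, against 808, 673 and 685 FPKM in the control libraries (limma log2 change 2.05, SE 0.076, adjusted p = 2.06e-06). Both mitochondrial genes had separate arms. IRF7, the factor that amplifies transcription of interferon genes, had 16.2, 13.9 and 12.9 FPKM in the shCBX7 libraries, against 3.10, 2.43 and 2.79 FPKM in the control libraries (limma log2 change 2.02, SE 0.097, adjusted p = 5.81e-06). IFIT1, which binds foreign RNA ends and blocks their translation, had 36.2, 37.4 and 36.0 FPKM in the shCBX7 libraries, against 8.62, 9.12 and 9.13 FPKM in the control libraries (limma log2 change 1.92, SE 0.046, adjusted p = 3.32e-07). IFI44L, a member of the IFI44 family, had 9.99, 12.3 and 10.9 FPKM in the shCBX7 libraries, against 2.09, 2.65 and 2.15 FPKM in the control libraries (limma log2 change 1.87, SE 0.093, adjusted p = 6.49e-06). In each of these genes the arms were separate, and the control libraries already held the message at a level above the filter.

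**Figure D2:**
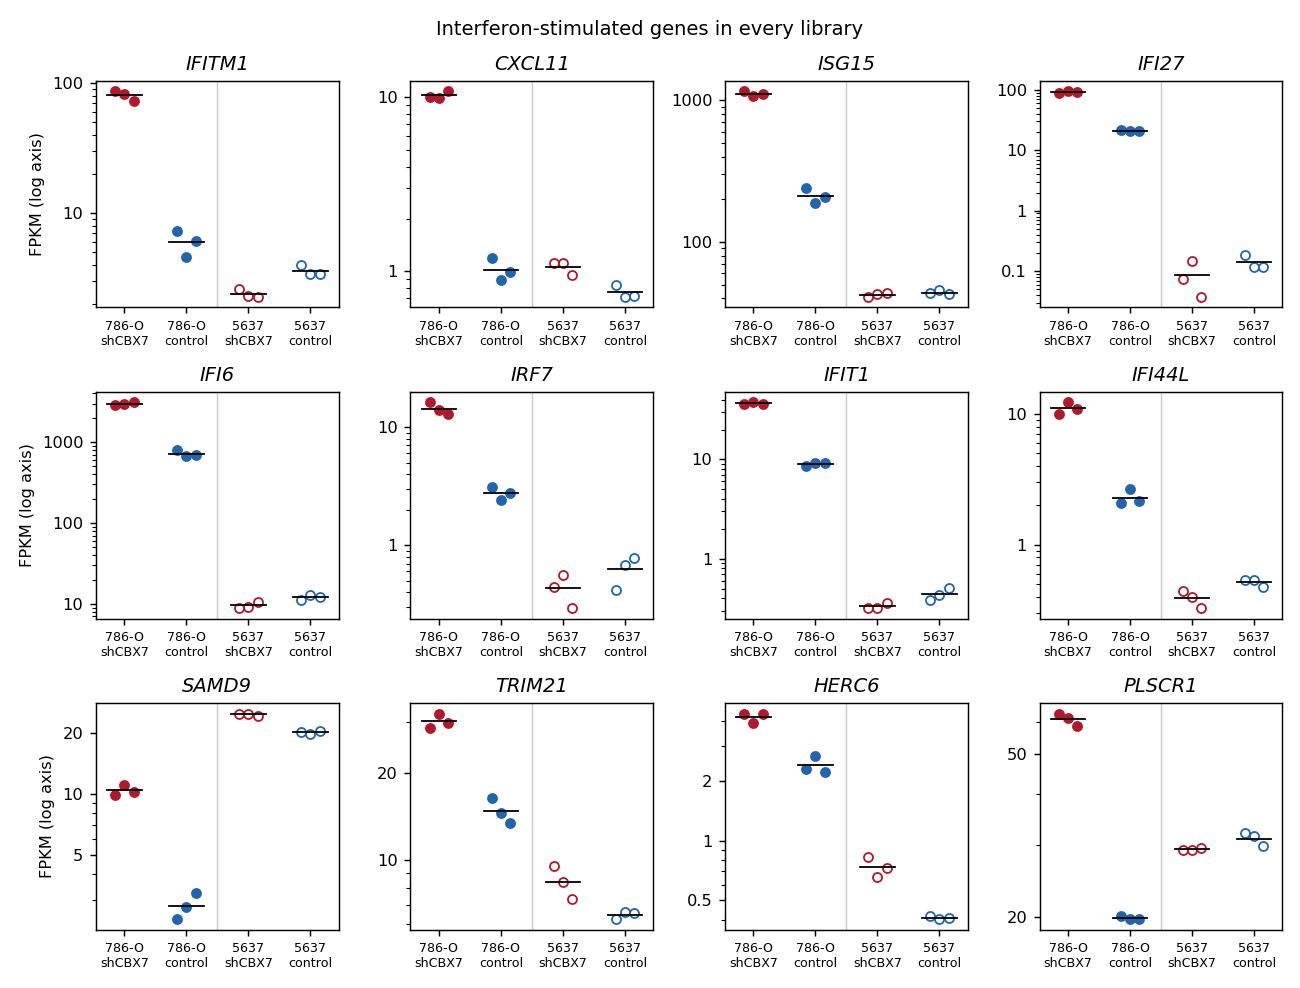
FPKM on a log axis in each library for 12 interferon-stimulated genes, with shCBX7 left of control in each line and the bar at the mean of 3 libraries. The 8 genes with the largest rises in 786-O are separated between its arms, while in 5637 their arms differ less, with IFITM1 and IFI6 called lower and CXCL11 called higher, and SAMD9, TRIM21 and HERC6 are higher with shCBX7 in both lines.

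The start regions of several of these genes are shown because the members moved together in 786-O and many are known targets of the response element. Windows from 250 bases before to 50 bases after the RefSeq start (GRCh38.p14) were given for 34 of the 41 genes, those of IFIT2, OASL, IFITM2, MX2, USP18, IRF7 and TRIM22 not among them. A pair of GAAA repeats with any 2 bases between them (GAAA, NN, GAAA) was searched on both strands, with overlapping matches counted. It was present in 21 of the 34 windows (61.8%), against 1255 of all 35116 RefSeq windows of that length (3.57%). With 1 window per gene, it was in 271 of 9198 tested genes in 786-O (2.95%) and 260 of 9752 in 5637 (2.67%). As many members are known targets of the element, their share depends on how they were chosen. The stretches below hold the matches before the start and run 5′ to 3′ on the strand of the gene, with the matching letters in capitals. They are chr11:313980-314029 of the plus strand for IFITM1, chr1:1013364-1013419 of the plus strand for ISG15 and chr14:94110608-94110670 of the plus strand for IFI27. The others are chr1:27672256-27672368 of the minus strand for IFI6, chr10:89392487-89392549 of the plus strand for IFIT1 and chr1:78620264-78620404 of the plus strand for IFI44L.
IFITM1: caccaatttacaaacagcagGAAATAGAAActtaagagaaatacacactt
ISG15: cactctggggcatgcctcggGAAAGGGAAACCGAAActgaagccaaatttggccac
IFI27: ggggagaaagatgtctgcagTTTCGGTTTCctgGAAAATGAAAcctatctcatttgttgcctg
IFI6: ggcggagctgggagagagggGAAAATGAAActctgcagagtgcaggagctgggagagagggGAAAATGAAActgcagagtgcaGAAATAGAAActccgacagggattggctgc
IFIT1: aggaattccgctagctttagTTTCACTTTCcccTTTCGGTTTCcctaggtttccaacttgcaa
IFI44L: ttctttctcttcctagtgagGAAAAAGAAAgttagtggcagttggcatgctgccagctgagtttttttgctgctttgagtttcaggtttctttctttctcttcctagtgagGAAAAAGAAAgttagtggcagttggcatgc
In ISG15 the 2 matches overlap, in IFI6 there are 3, and in IFIT1 both are on the opposite strand and so read as TTTC repeats. CXCL11, with the second largest rise of the group, had no match in its window, nor had UBE2L6, IFI35, PARP9, CMPK2, SAMD9L, RSAD2, SP100, IRF1, HERC6, STAT2, IRF9 or XAF1. In 786-O, tested members with a match had a median log2 change of 1.54 (n = 20, range 0.32 to 3.58), and those without one had a median of 1.10 (n = 12, range 0.22 to 2.48). In 5637 the medians were -0.05 with a match (n = 18, range -0.44 to 0.33) and 0.09 without (n = 10, range -0.31 to 0.30). A match is a description of the letters only, and these ranges overlap widely in both lines.

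The RNA-binding effectors all rose in 786-O, 5 of 5, with a median log2 change of 1.31. IFIT3, which stabilises IFIT1 on RNA, had 76.2, 74.7 and 72.8 FPKM in the shCBX7 libraries, against 22.3, 24 and 23.7 FPKM in the control libraries (limma log2 change 1.64, SE 0.046, adjusted p = 5.89e-07). IFIT2 had 18.0, 16.6 and 17.6 FPKM in the shCBX7 libraries, against 6.38, 6.50 and 6.41 FPKM in the control libraries (limma log2 change 1.31, SE 0.049, adjusted p = 2.12e-06). IFIT2 and IFIT3 were each separate between the arms. IFIT5, which also binds RNA ends, had 9.39, 9.70 and 8.94 FPKM in the shCBX7 libraries, against 5.49, 5.99 and 6.50 FPKM in the control libraries (limma log2 change 0.57, SE 0.066, adjusted p = 3.35e-04), the smallest change of the 5, with arms that did not overlap. OASL, an inactive relative of the oligoadenylate synthetases that boosts RNA sensing by RIG-I, had 27.6, 28.1 and 30.1 FPKM in the shCBX7 libraries, against 15.7, 14.6 and 14.9 FPKM in the control libraries (limma log2 change 0.88, SE 0.053, adjusted p = 1.41e-05). The 4 IFIT genes lie side by side on chromosome 10 and are paralogues, so reads of near-identical stretches could have been split among them, and how such reads were counted is not given in the sources used here.

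The IFITM membrane proteins rose in 786-O as well, 3 of 3. IFITM3, which acts against virus fusion in endosomes, had 706, 686 and 693 FPKM in the shCBX7 libraries, against 277, 262 and 282 FPKM in the control libraries (limma log2 change 1.34, SE 0.045, adjusted p = 1.34e-06). IFITM2 had 12.2, 13.7 and 18.0 FPKM in the shCBX7 libraries, against 3.92, 4.10 and 5.89 FPKM in the control libraries (limma log2 change 1.47, SE 0.166, adjusted p = 2.73e-04), and library 3 was the highest in both arms. These values are uncertain between family members: the gene model of IFITM2, chr11:307631-315272, holds all 1767 bases of the model of IFITM1, chr11:313506-315272, on the same strand (GRCh38, GENCODE release 29). Reads of IFITM1 could have entered the IFITM2 value or been dropped.

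All 5 IFI genes outside the IFIT and IFITM families rose in 786-O, with a median log2 change of 1.87. IFI44, a cytoplasmic protein next to IFI44L on chromosome 1, had 65.3, 72.1 and 69.4 FPKM in the shCBX7 libraries, against 21.7, 26.3 and 22.4 FPKM in the control libraries (limma log2 change 1.52, SE 0.078, adjusted p = 7.66e-06). IFI35, a leucine zipper protein, had 98.8, 97.3 and 96.0 FPKM in the shCBX7 libraries, against 38.9, 34.7 and 37.8 FPKM in the control libraries (limma log2 change 1.37, SE 0.052, adjusted p = 2.15e-06). Neither had overlapping arms. Of the GTPases, MX2, which restricts nuclear entry of some viruses, rose, with 4.29, 4.41 and 4.47 FPKM in the shCBX7 libraries, against 0.822, 0.853 and 0.799 FPKM in the control libraries (limma log2 change 1.56, SE 0.058, adjusted p = 1.91e-06). MX1, its neighbour on chromosome 21 and a broad antiviral GTPase, had 0.318, 0.237 and 0.306 FPKM in the shCBX7 libraries, against 0.188, 0.272 and 0.239 FPKM in the control libraries, was under the filter and was not tested. Its arms overlapped, on 27 to 52 reads a library.

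All 5 genes of the ISG15 system rose in 786-O. UBE2L6, the enzyme that carries ISG15 for conjugation, had 183, 172 and 179 FPKM in the shCBX7 libraries, against 60.1, 59.2 and 57.2 FPKM in the control libraries (limma log2 change 1.58, SE 0.044, adjusted p = 5.86e-07). HERC5, the human ligase that attaches ISG15, had 13.5, 14 and 12.1 FPKM in the shCBX7 libraries, against 6.93, 7.15 and 7.16 FPKM in the control libraries (limma log2 change 0.81, SE 0.062, adjusted p = 4.21e-05). The enzyme and the ligase both had arms that did not overlap. USP18, which removes ISG15 and also restrains the interferon receptor, had 18.3, 18.0 and 17.3 FPKM in the shCBX7 libraries, against 9.0, 6.38 and 7.37 FPKM in the control libraries (limma log2 change 1.15, SE 0.104, adjusted p = 9.46e-05). HERC6, the main ISG15 ligase in mouse, had 4.33, 3.92 and 4.38 FPKM in the shCBX7 libraries, against 2.31, 2.66 and 2.23 FPKM in the control libraries (limma log2 change 0.62, SE 0.072, adjusted p = 3.22e-04). The 5 silenced means all lay above every control library, with ratios of means between 1.76 for HERC6 and 5.26 for ISG15.

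Among the transcription regulators 4 of 5 rose in 786-O, and STAT2 and IRF9, the subunits of ISGF3 in the group, had the smallest changes. SP100, a component of nuclear bodies, had 12.8, 14 and 13.1 FPKM in the shCBX7 libraries, against 5.58, 6.20 and 5.51 FPKM in the control libraries (limma log2 change 1.08, SE 0.061, adjusted p = 1.12e-05). IRF1, an activator induced early by interferons, had 20.9, 19.7 and 19.3 FPKM in the shCBX7 libraries, against 12.8, 10.9 and 12.5 FPKM in the control libraries (limma log2 change 0.69, SE 0.068, adjusted p = 1.48e-04). STAT2 had 7.75, 7.06 and 7.30 FPKM in the shCBX7 libraries, against 6.09, 6.50 and 5.59 FPKM in the control libraries (limma log2 change 0.25, SE 0.065, adjusted p = 0.0153), the smallest called rise of the group. Its call was lost without shCBX7 library 1 (log2 change 0.21, limma adjusted p = 0.0570) or without control library 3 (log2 change 0.20, limma adjusted p = 0.0549). IRF9 had 1.17, 0.790 and 1.01 FPKM in the shCBX7 libraries, against 0.726, 0.474 and 0.942 FPKM in the control libraries, overlapping arms, and did not pass the test (limma log2 change 0.22, adjusted p = 0.183).

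PARP9 and DTX3L, partners in a complex that modifies histones and STAT signalling, and PARP14, an ADP-ribosyltransferase, rose in 786-O, 3 of 3. PARP9 had 8.61, 9.01 and 9.0 FPKM in the shCBX7 libraries, against 2.96, 3.58 and 2.95 FPKM in the control libraries (limma log2 change 1.25, SE 0.071, adjusted p = 1.20e-05). DTX3L had 8.14, 7.91 and 8.71 FPKM in the shCBX7 libraries, against 5.83, 6.76 and 6.74 FPKM in the control libraries (limma log2 change 0.32, SE 0.068, adjusted p = 0.00653), and PARP14 had 8.09, 8.19 and 8.55 FPKM in the shCBX7 libraries, against 4.95, 6.56 and 6.29 FPKM in the control libraries (limma log2 change 0.43, SE 0.092, adjusted p = 0.00644). PARP9 and DTX3L share a start region on opposite strands, with 340 bases of overlap between the gene models, and the strand setting of the counting is not given in the sources used here. SAMD9 and SAMD9L, neighbouring genes whose products restrict poxviruses, rose together. SAMD9 had 9.91, 11.1 and 10.2 FPKM in the shCBX7 libraries, against 2.39, 2.77 and 3.23 FPKM in the control libraries (limma log2 change 1.59, SE 0.087, adjusted p = 1.04e-05), and SAMD9L had 6.76, 7.78 and 7.61 FPKM in the shCBX7 libraries, against 2.35, 3.0 and 3.21 FPKM in the control libraries (limma log2 change 1.13, SE 0.096, adjusted p = 7.12e-05).

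Of the other antiviral effectors, 8 of 8 tested rose. BST2 (tetherin), which holds budding virus on the cell surface, had 1031, 1034 and 1067 FPKM in the shCBX7 libraries, against 480.5, 401 and 420.3 FPKM in the control libraries (limma log2 change 1.27, SE 0.069, adjusted p = 1.03e-05). PLSCR1, a phospholipid scramblase with antiviral action, had 62.9, 61.2 and 58.7 FPKM in the shCBX7 libraries, against 20.2, 19.8 and 19.8 FPKM in the control libraries (limma log2 change 1.57, SE 0.044, adjusted p = 5.86e-07). EPSTI1 had 9.57, 9.93 and 8.81 FPKM in the shCBX7 libraries, against 1.85, 2.20 and 2.39 FPKM in the control libraries (limma log2 change 1.73, SE 0.079, adjusted p = 4.81e-06). All 3 were separate between the arms, and so were the next genes. TRIM21, a cytosolic antibody receptor and ubiquitin ligase, had 28.7, 32.1 and 29.7 FPKM in the shCBX7 libraries, against 16.4, 14.5 and 13.4 FPKM in the control libraries (limma log2 change 0.98, SE 0.078, adjusted p = 5.09e-05), while TRIM22, another ubiquitin ligase, had 5.20, 5.49 and 5.07 FPKM in the shCBX7 libraries, against 2.02, 2.15 and 1.95 FPKM in the control libraries (limma log2 change 1.04, SE 0.058, adjusted p = 1.09e-05). ISG20, an exonuclease, had 4.32, 4.67 and 4.74 FPKM in the shCBX7 libraries, against 1.72, 1.41 and 1.66 FPKM in the control libraries (limma log2 change 1.10, SE 0.07, adjusted p = 1.87e-05).

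RSAD2 (viperin) and CMPK2, a mitochondrial nucleotide kinase, form a divergent gene pair and were low in the controls. RSAD2 had 2.79, 2.62 and 2.48 FPKM in the shCBX7 libraries, against 0.905, 1.09 and 0.802 FPKM in the control libraries (limma log2 change 0.91, SE 0.08, adjusted p = 8.16e-05). CMPK2 had 2.89, 2.76 and 2.35 FPKM in the shCBX7 libraries, against 0.543, 0.659 and 0.620 FPKM in the control libraries (limma log2 change 1.19, SE 0.082, adjusted p = 2.63e-05). Their models overlap by 830 bases on opposite strands, so their values carry the same doubt on strand as PARP9 and DTX3L. XAF1, a partner of the apoptosis inhibitor XIAP, had 0.518, 0.490 and 0.390 FPKM in the shCBX7 libraries, against 0.0272, 0.0495 and 0.110 FPKM in the control libraries on 3 to 65 reads a library. It was under the filter and was not tested, although its arms did not overlap. With XAF1, 39 of the 41 genes had every silenced library above every control library, against 29.2% of all tested genes with that order, and 0 had the reverse order, against 31.0%.

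**Figure D3:**
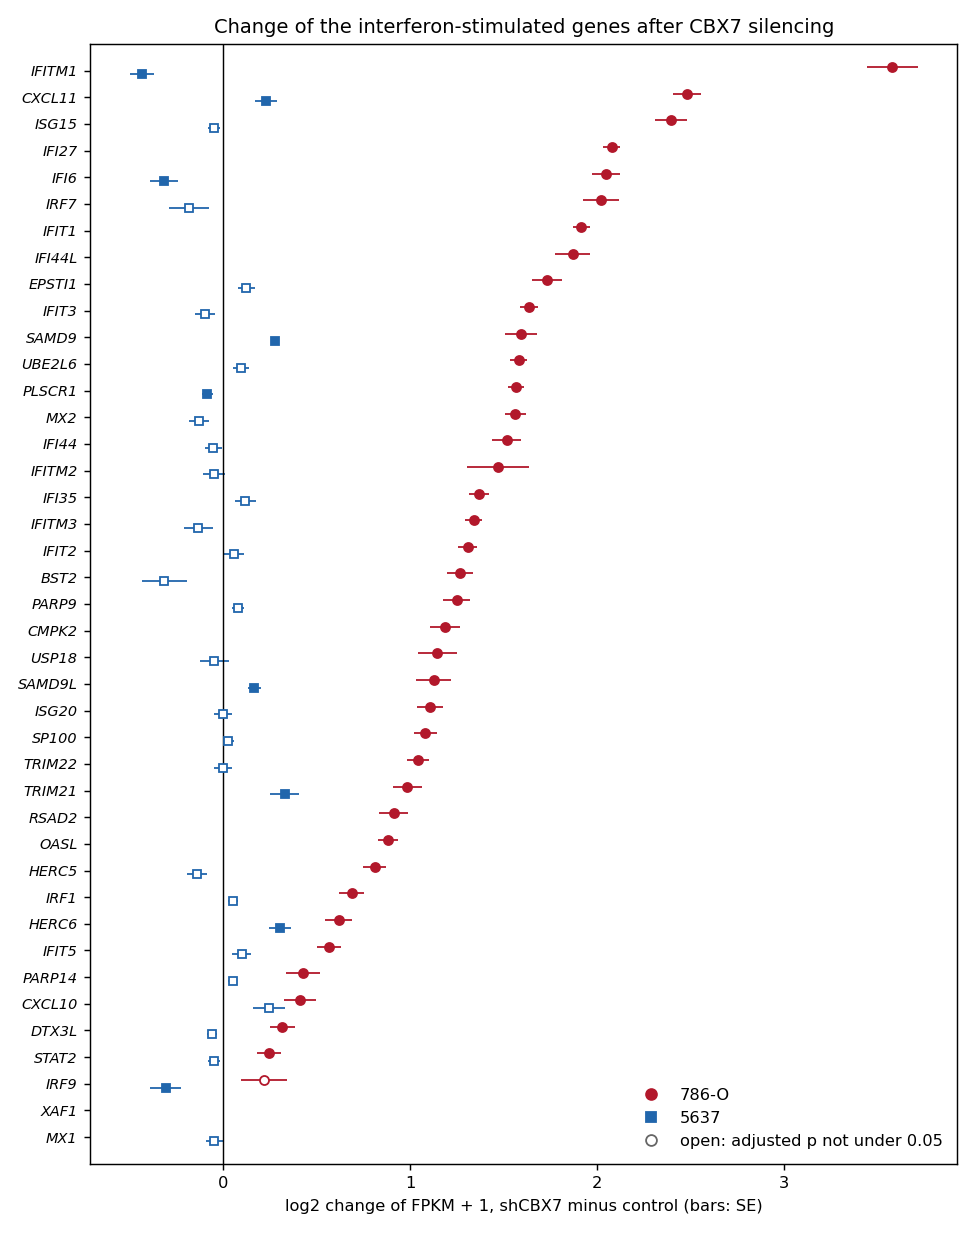
Limma log2 change of log2(FPKM + 1), shCBX7 minus control, with its standard error for each interferon-stimulated gene in 786-O (circles) and 5637 (squares), ordered by the 786-O change, with filled points at an adjusted p under 0.05. In 786-O every tested gene lies right of 0, led by IFITM1 at 3.58, and in 5637 they lie between -0.44 and 0.33. Genes under the filter in a line have no point there.

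The summed level of the 41 genes was 6751, 6731.5 and 6923 FPKM in the shCBX7 libraries of 786-O, against 2131, 1847 and 1917 FPKM in its control libraries. This was 2.11%, 2.11% and 2.15% of all FPKM with shCBX7, against 0.657%, 0.596% and 0.605% with sh control. IFI6, ISG15, BST2 and IFITM3 carried most of it. Without these 4 the sums were 967 to 983 FPKM in shCBX7 libraries and 324 to 327 FPKM in control libraries, so the rise was not carried by the abundant genes alone. The ratio of means had a median of 2.8 over the 41 genes, ranged between 1.22 for STAT2 and 13.7 for IFITM1 and was at least 2 for 30 genes. Across the 39 tested genes, the control level and the log2 change had a Spearman correlation of 0.23, given as a description across genes of the same libraries.

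In 5637, the group showed no common direction. Of the 41 genes, 34 passed the filter, 5 rose, 4 fell and 25 were not called, against 24.4% higher and 20.2% lower among all 12689 tested genes. Voom on recovered reads called 9 members higher and 8 lower, and it also called more of all genes, 3202 higher and 2605 lower of 11618. ISG15, whose reads were not recovered in 5637, had no value there. Without shCBX7 or control libraries, 1 at a time, 4 to 6 members were called higher and 2 to 5 lower by limma. The median log2 change was -0.02, against 0.01 over all genes, with 15 above 0 and 19 below 0, and 25 had a log2 change under 0.2 in size. Arms did not overlap in 9 tested members that were higher and 5 that were lower, against 30.7% and 25.7% of all tested genes. None of the 41 ratios of means reached 2, and their median was 0.962. IFIT1, OASL, IFI27, IFI44L, RSAD2, CMPK2 and XAF1 were under the filter and were not tested. The sums were 351.1, 339 and 353 FPKM in shCBX7 libraries of 5637, against 347, 364 and 350.3 FPKM in its control libraries, and the arms overlapped.

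The genes that rose in 5637 came from different roles. TRIM21 had 9.51, 8.39 and 7.30 FPKM in the shCBX7 libraries, against 6.22, 6.61 and 6.55 FPKM in the control libraries of 5637 (limma log2 change 0.33, SE 0.079, adjusted p = 0.0139). HERC6 had 0.829, 0.659 and 0.727 FPKM in the shCBX7 libraries, against 0.415, 0.40 and 0.408 FPKM in the control libraries (limma log2 change 0.30, SE 0.058, adjusted p = 0.00555), 1.81 times the control mean and the largest ratio of the group in this line, at a low level. SAMD9 had 24.9, 24.8 and 24.2 FPKM in the shCBX7 libraries, against 20.1, 19.8 and 20.5 FPKM in the control libraries (limma log2 change 0.28, SE 0.022, adjusted p = 1.64e-04), with the smallest standard error of these. The arms of TRIM21, HERC6 and SAMD9 did not overlap. SAMD9L had 4.37, 4.5 and 4.70 FPKM in the shCBX7 libraries, against 4.07, 3.79 and 3.91 FPKM in the control libraries (limma log2 change 0.17, SE 0.036, adjusted p = 0.00907). CXCL11 had 1.11, 1.11 and 0.950 FPKM in the shCBX7 libraries, against 0.833, 0.708 and 0.723 FPKM in the control libraries (limma log2 change 0.23, SE 0.058, adjusted p = 0.0161). These were separate as well. The CXCL11 call was lost without shCBX7 library 2 (log2 change 0.21, limma adjusted p = 0.0551), control library 2 (0.21, limma adjusted p = 0.0517) or control library 3 (0.22, limma adjusted p = 0.0512).

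The genes that fell in 5637 included the one that rose most in 786-O. IFITM1 had 2.62, 2.30 and 2.25 FPKM in the shCBX7 libraries, against 3.99, 3.37 and 3.40 FPKM in the control libraries of 5637 (limma log2 change -0.44, SE 0.066, adjusted p = 0.00210). IFI6 had 8.82, 9.26 and 10.7 FPKM in the shCBX7 libraries, against 11.2, 13.0 and 12.3 FPKM in the control libraries (limma log2 change -0.32, SE 0.074, adjusted p = 0.0118). In both, the highest silenced library was below the lowest control library. IRF9 had 1.51, 1.05 and 1.35 FPKM in the shCBX7 libraries, against 1.92, 1.96 and 1.65 FPKM in the control libraries (limma log2 change -0.31, SE 0.083, adjusted p = 0.0209). PLSCR1 had 29.2, 29.2 and 29.4 FPKM in the shCBX7 libraries, against 32.0, 31.5 and 29.9 FPKM in the control libraries (limma log2 change -0.09, SE 0.028, adjusted p = 0.0434). In each, every silenced library was below every control library, by a wide margin in IFITM1 and a narrow one in PLSCR1. The IRF9 call was lost without control library 1 (log2 change -0.29, limma adjusted p = 0.0623) or 2 (log2 change -0.28, limma adjusted p = 0.0658), or when low genes were kept in the fit (limma adjusted p = 0.0583). The PLSCR1 call was lost without any one of the shCBX7 libraries or without control library 1 or 2, with limma adjusted p between 0.0867 and 0.122 and log2 changes between -0.089 and -0.065. It was also lost without the filter (limma adjusted p = 0.0769) and without the mean-variance trend (limma adjusted p = 0.0715).

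Other genes that led in 786-O did not pass the test in 5637 or were under the filter there. ISG15 had 40.8, 43.1 and 43.5 FPKM in the shCBX7 libraries, against 43.5, 45.6 and 43.0 FPKM in the control libraries of 5637, and its arms overlapped. IFITM3 had 85.3, 70.6 and 83.8 FPKM in the shCBX7 libraries, against 83.0, 93.7 and 85.8 FPKM in the control libraries, and IFITM2 had 0.557, 0.707 and 0.637 FPKM in the shCBX7 libraries, against 0.677, 0.651 and 0.745 FPKM in the control libraries, both with overlapping arms. IRF7 had 0.442, 0.558 and 0.292 FPKM in the shCBX7 libraries, against 0.415, 0.685 and 0.787 FPKM in the control libraries, with overlapping arms and a wide scatter within each. BST2, one of the most abundant members in 786-O, had 0.949, 1.34 and 0.714 FPKM in the shCBX7 libraries, against 1.26, 1.73 and 1.44 FPKM in the control libraries of 5637 (limma log2 change -0.32, adjusted p = 0.0728). MX2 had 0.585, 0.515 and 0.504 FPKM in the shCBX7 libraries, against 0.644, 0.714 and 0.677 FPKM in the control libraries, with arms that did not overlap but no call (limma log2 change -0.13, adjusted p = 0.0881).

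Further members tested in 5637 had overlapping arms and were not called. IFIT3 had 3.91, 3.52 and 3.88 FPKM in the shCBX7 libraries, against 4.46, 3.88 and 3.99 FPKM in the control libraries of 5637. IFI44 had 4.69, 5.03 and 5.07 FPKM in the shCBX7 libraries, against 4.88, 5.06 and 5.52 FPKM in the control libraries. Both lay slightly lower with shCBX7 on average. STAT2 had 10.9, 10.3 and 10.2 FPKM in the shCBX7 libraries, against 10.9, 11.1 and 10.6 FPKM in the control libraries, and DTX3L had 16.9, 16.3 and 16.2 FPKM in the shCBX7 libraries, against 16.8, 17.3 and 17.6 FPKM in the control libraries. USP18 had 2.59, 2.56 and 2.79 FPKM in the shCBX7 libraries, against 2.84, 3.15 and 2.34 FPKM in the control libraries, and HERC5 had 4.81, 5.70 and 5.14 FPKM in the shCBX7 libraries, against 5.67, 5.97 and 5.92 FPKM in the control libraries. ISG20 and TRIM22 had nearly equal means. ISG20 had 0.831, 0.791 and 0.826 FPKM in the shCBX7 libraries, against 0.839, 0.851 and 0.767 FPKM in the control libraries, and TRIM22 had 1.39, 1.33 and 1.28 FPKM in the shCBX7 libraries, against 1.29, 1.28 and 1.44 FPKM in the control libraries. The other tested members, IFIT2, IFIT5, IFI35, MX1, UBE2L6, IRF1, SP100, PARP9, PARP14, EPSTI1 and CXCL10, had log2 changes between -0.05 for MX1 and 0.25 for CXCL10 and were not called, though the arms of PARP9, PARP14, EPSTI1 and CXCL10 did not overlap. Of the genes under the filter, IFIT1 had 0.318, 0.318 and 0.360 FPKM in the shCBX7 libraries, against 0.384, 0.435 and 0.512 FPKM in the control libraries, and IFI44L had 0.444, 0.396 and 0.327 FPKM in the shCBX7 libraries, against 0.541, 0.534 and 0.474 FPKM in the control libraries, both with every silenced library below every control library and neither tested. IFI27 had 0.0733, 0.148 and 0.0371 FPKM in the shCBX7 libraries, against 0.187, 0.117 and 0.119 FPKM in the control libraries, and OASL, RSAD2, CMPK2 and XAF1 stayed below 0.5 FPKM in every 5637 library.

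The change, with its sign, was compared between the lines by a limma interaction term fitted to the 12 libraries together, which sets 1 within-table difference against the other. CBX7 itself was left at 61.0% of the control mean in 786-O and at 83.3% in 5637. The line and the depth of silencing thus differ together and cannot be told apart here. Of 33 members tested in both lines, 32 had a higher signed change in 786-O and 0 a lower one by limma, against 24.7% and 32.4% of the 10354 genes tested in both. Their median difference was 1.25, against -0.04 over those genes. For IRF9 the difference came with a called fall in 5637 (log2 change -0.31) and an uncalled change in 786-O (0.22). A further 7 members entered the fit over all 12 libraries. IFIT1, OASL, IFI27, IFI44L, RSAD2 and CMPK2 were under the filter in 5637 and entered through their level in 786-O, and MX1 was under the filter in 786-O. With them, 38 of 40 members had a higher signed change in 786-O and 0 a lower one by limma. Over all 12777 genes tested the shares were 24.3% and 29.0% (53.3% in either direction). As 6 of these members entered only through 786-O, this count is a description, and the 33 tested in both lines are the ones to compare. The count of lower signed changes was also 0 at an unadjusted p under 0.05 and with voom. The median difference was 1.22, against -0.02 over all genes. IFITM1 differed most, by 4.01 (limma adjusted p = 8.73e-09). MX1 (0.11, limma adjusted p = 0.191) and CXCL10 (0.17, limma adjusted p = 0.281) did not pass. The HERC6 difference of 0.32 rested on the scale: it was 0.07 with a pseudocount of 0.1 (limma adjusted p = 0.684) and -0.02 on recovered reads (limma adjusted p = 0.931). The ratio of means of HERC6 was 1.76 in 786-O and 1.81 in 5637. The differences of the 6 members under the filter in 5637 are close to their 786-O changes alone, as these members lie near 0 in 5637 on log2(FPKM + 1). Of the 33 members tested in both lines, 8 (24.2%) were called in both, against 26.9% of all genes tested in both, a share near the background. HERC6, SAMD9, SAMD9L, TRIM21 and CXCL11 were higher in both (5 of 33, against 8.40% of those genes), and IFITM1, IFI6 and PLSCR1 were higher in 786-O and lower in 5637 (3 of 33, against 4.70%).

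The lines also stood apart in their sh control libraries. The tables were scaled separately, so control levels are set side by side without a test. In 30 of the 41 genes (73.2%) every 786-O control library was above every 5637 control library, against 35.3% of 13619 genes compared, and in 11 (26.8%) every one was below, against 56.5%. The 13619 genes had a control mean of at least 0.5 FPKM in either line, while the 41 members were taken without a filter. The median control level of the group was 5.94 FPKM in 786-O and 2.6 FPKM in 5637, while over all genes it was 3.84 FPKM in 786-O and 5.78 FPKM in 5637. IFI6 averaged 722 ± 74.6 FPKM (SD, n = 3) in 786-O controls and 12.2 ± 0.923 FPKM (SD, n = 3) in 5637 controls. BST2 averaged 434 ± 41.3 FPKM (SD, n = 3) in 786-O controls and 1.48 ± 0.240 FPKM (SD, n = 3) in 5637 controls. IFITM3 was abundant in both, at 274 ± 10.4 FPKM (SD, n = 3) in 786-O controls and 87.5 ± 5.54 FPKM (SD, n = 3) in 5637 controls. The 11 genes that were lower in 786-O controls were MX1, IRF1, IRF9, STAT2, PARP9, PARP14, DTX3L, SAMD9, SAMD9L, PLSCR1 and CXCL10. They include the ISGF3 subunits STAT2 and IRF9. SAMD9 averaged 2.80 ± 0.417 FPKM (SD, n = 3) in 786-O controls and 20.1 ± 0.346 FPKM (SD, n = 3) in 5637 controls.

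**Figure D4:**
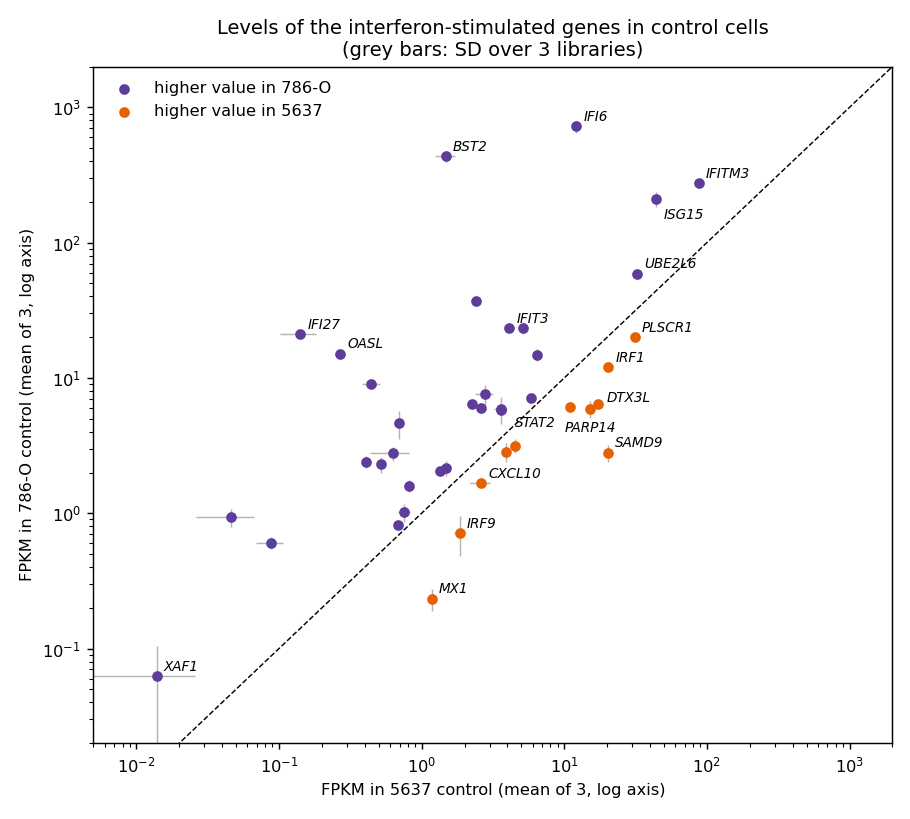
Mean FPKM of each interferon-stimulated gene in 786-O controls (vertical) and 5637 controls (horizontal), both on log axes, with SD bars over 3 libraries and a dashed line at equal values. Of the 41 genes 30 lie above the line, with BST2 (294 times higher in 786-O controls), IFI27 (149 times) and IFI6 (59.3 times) farthest above it, and 11 lie below it.

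The genes that carry the interferon signal moved in a mixed way in 786-O. Over 43 genes of ligands, receptors, kinases, inhibitors and the induction arm, 28 were tested in each line. In 786-O, 10 rose, 4 fell and 14 were not called, against 24.7% called higher and 26.2% called lower among all tested genes. In 5637, 6 rose, 8 fell and 14 were not called, against 24.4% called higher and 20.2% called lower. The share called was thus 14 of 28 in 786-O against 51.0% of all genes and 14 of 28 in 5637 against 44.5%. No ligand of 14 passed the filter in 786-O. IFNB1, the first type I interferon made after RNA or DNA sensing, had 1.04, 0.768 and 0.523 FPKM in the shCBX7 libraries, against 0, 0.0635 and 0 FPKM in the control libraries of 786-O, on 0 to 17 reads a library, and was not tested. Its silenced libraries were all above its control libraries. In 5637 it held 0 to 1 reads a library.

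Of the receptors, IFNGR2, a chain of the interferon gamma receptor, had 70.3, 66.1 and 64.0 FPKM in the shCBX7 libraries, against 37.8, 34.9 and 36.3 FPKM in the control libraries of 786-O (limma log2 change 0.86, SE 0.053, adjusted p = 1.59e-05), and IFNAR1, a chain of the type I receptor, had 8.09, 8.49 and 8.11 FPKM in the shCBX7 libraries, against 6.04, 6.81 and 6.54 FPKM in the control libraries (limma log2 change 0.31, SE 0.057, adjusted p = 0.00309). IFNLR1, a chain of the lambda receptor, had 0.428, 0.426 and 0.581 FPKM in the shCBX7 libraries, against 0.900, 0.909 and 0.948 FPKM in the control libraries (limma log2 change -0.38, SE 0.082, adjusted p = 0.00671) and fell. JAK2 was called higher (log2 change 0.24, limma adjusted p = 0.0320), but not without shCBX7 library 2 or 3 or any one of the control libraries (log2 change 0.19 to 0.26, limma adjusted p = 0.0531 to 0.104) and not without the filter (limma adjusted p = 0.0895). STAT3 was called lower (log2 change -0.18, limma adjusted p = 0.0196), but not without shCBX7 library 1 (-0.15, limma adjusted p = 0.0724) or control library 3 (-0.16, limma adjusted p = 0.0781).

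Of 9 inhibitors, 2 rose and 1 fell in 786-O, against 24.7% called higher and 26.2% called lower among all tested genes. PTPN1, a phosphatase that acts on JAK2 and TYK2, had 7.29, 6.53 and 7.0 FPKM in the shCBX7 libraries, against 20.1, 19.7 and 20.7 FPKM in the control libraries (limma log2 change -1.42, SE 0.053, adjusted p = 2.13e-06), the largest fall among the pathway genes tested. SOCS1 and SOCS3, feedback inhibitors of the JAK kinases, rose. SOCS1 had 30.9, 26.1 and 26.6 FPKM in the shCBX7 libraries, against 23.5, 20.7 and 19.1 FPKM in the control libraries (limma log2 change 0.39, SE 0.09, adjusted p = 0.00914), and SOCS3 had 42.9, 37.8 and 43.2 FPKM in the shCBX7 libraries, against 32.5, 29.7 and 31.4 FPKM in the control libraries (limma log2 change 0.39, SE 0.065, adjusted p = 0.00190). In the arm upstream of interferon, 5 of 10 rose and 1 fell, against the same 24.7% and 26.2%. IKBKE, a kinase that activates IRF3 and IRF7, had 18.9, 18.8 and 18.4 FPKM in the shCBX7 libraries, against 10.0, 9.05 and 8.47 FPKM in the control libraries (limma log2 change 0.95, SE 0.064, adjusted p = 2.30e-05). TMEM173 (STING), the adaptor of DNA sensing, had 14.9, 13.9 and 15.1 FPKM in the shCBX7 libraries, against 13.2, 11.0 and 11.2 FPKM in the control libraries (limma log2 change 0.29, SE 0.074, adjusted p = 0.0130), and CGAS, the sensor before it, had 5.53, 5.18 and 4.56 FPKM in the shCBX7 libraries, against 7.28, 7.55 and 7.06 FPKM in the control libraries (limma log2 change -0.45, SE 0.07, adjusted p = 0.00137) and fell. TBK1 and IRF2BP2 were called higher but not under several of the left-out libraries: TBK1 kept no call without control library 3 or any one shCBX7 library (limma adjusted p = 0.0706 to 0.0918), and IRF2BP2 none without shCBX7 library 1 or 2 or control library 2 or 3 (limma adjusted p = 0.0790 to 0.132). Without the filter neither was called (limma adjusted p = 0.102 for TBK1 and 0.0884 for IRF2BP2), nor was IRF2BP2 without the mean-variance trend (limma adjusted p = 0.0565). IRF2, a repressor of interferon-driven promoters, rose (log2 change 0.29, limma adjusted p = 0.00148).

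In 5637, IFNAR2, a chain of the type I receptor, fell, with 6.12, 5.92 and 5.45 FPKM in the shCBX7 libraries, against 7.33, 6.90 and 7.70 FPKM in the control libraries of 5637 (limma log2 change -0.28, SE 0.049, adjusted p = 0.00365), and IKBKE rose, with 4.40, 4.55 and 4.20 FPKM in the shCBX7 libraries, against 3.47, 3.02 and 2.75 FPKM in the control libraries (limma log2 change 0.40, SE 0.065, adjusted p = 0.00267). PTPN1 fell there too, with 37.0, 38.2 and 37.8 FPKM in the shCBX7 libraries, against 40.0, 40.5 and 40.1 FPKM in the control libraries of 5637 (limma log2 change -0.09, SE 0.02, adjusted p = 0.00881). Its difference between the lines was -1.33 (limma interaction, adjusted p = 6.11e-09). JAK1, called higher in 5637, was not called without shCBX7 library 2 or 3 or control library 2 or 3 (limma adjusted p = 0.0522 to 0.0727), with median centring (limma adjusted p = 0.0513) or without the mean-variance trend (limma adjusted p = 0.0541). PTPN6, called higher, was not called without shCBX7 library 1 or 3 or control library 1 or 3 (limma adjusted p = 0.0744 to 0.107), without the filter (limma adjusted p = 0.0751) or with quantile normalization (limma adjusted p = 0.0646). PIAS1, called lower, was called in none of the fits without shCBX7 library 2 or 3 or any one control library (limma adjusted p = 0.0672 to 0.0985). Of the other pathway genes called in 5637, PTPN11 (log2 change 0.21), MAVS (0.17) and IRF2BP1 (0.25) rose, and IFNGR1 (-0.17), TYK2 (-0.12), PTPN2 (-0.15), IRF2 (-0.12) and IRF2BP2 (-0.27) fell, with limma adjusted p between 2.32e-04 and 0.0107. TMEM173 and CGAS in 5637 were not analysed here.

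**Figure D5:**
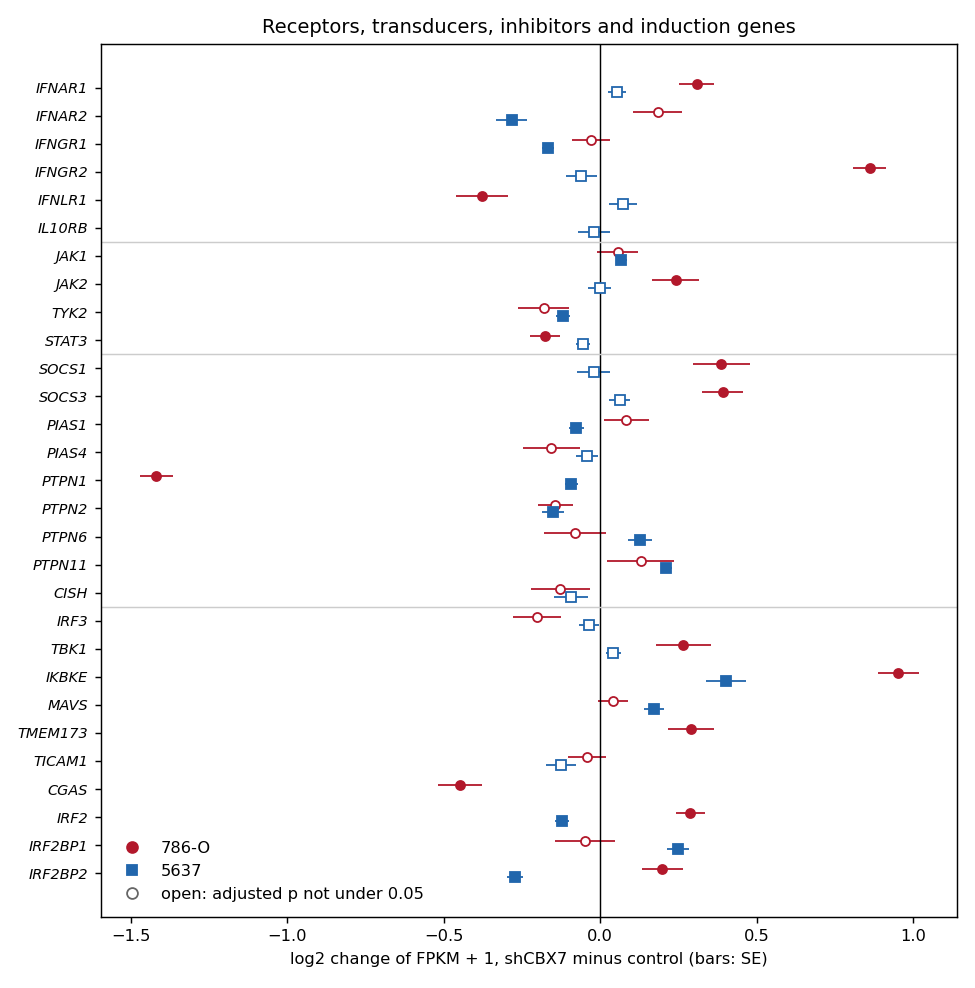
Limma log2 change of log2(FPKM + 1), shCBX7 minus control, with its standard error for the tested genes of the interferon pathway in 786-O and 5637, grouped by role. In 786-O, IKBKE (0.95) and IFNGR2 (0.86) rose most and PTPN1 (-1.42) fell most.

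Markers of other cells were set beside the rise in 786-O. The 8 leukocyte markers summed to 9.31 to 10.3 FPKM in shCBX7 libraries and 17.5 to 21.8 FPKM in control libraries, with PTPRC and CD3E at 0 in both arms. LAPTM5 held most of this sum, 8.07 FPKM in shCBX7 and 17.5 FPKM in control libraries of 786-O. Of the 8, LAPTM5 and CORO1A were lower in every shCBX7 library than in every control library, an order seen in 31.0% of all tested genes. The other 6 had overlapping arms or were at 0. Of 3 markers of plasmacytoid dendritic cells, a main source of interferon, the sum was 0.294 to 0.39 FPKM in shCBX7 libraries and 0.271 to 0.347 FPKM in control libraries, with LILRA4 at 0. The 6 fibroblast markers summed to 2.93 to 3.44 FPKM in shCBX7 libraries and 2.12 to 2.58 FPKM in control libraries, of which LUM held most. LUM was higher with no overlap of the arms, and COL1A1 was lower. The 4 endothelial markers summed to 0.505 to 0.656 FPKM in shCBX7 libraries and 0.284 to 0.401 FPKM in control libraries, with CDH5 at 0. PECAM1 was higher with no overlap of the arms (means of 0.305 FPKM in shCBX7 and 0.188 FPKM in control libraries), while VWF and KDR had overlapping arms.

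The 8 urothelial markers summed to 14.6 to 16.5 FPKM in shCBX7 libraries of 786-O and 8.64 to 9.1 FPKM in its control libraries. PPARG, a nuclear receptor, held most of it, with 11.8 FPKM in shCBX7 and 6.56 FPKM in control libraries of 786-O, and KRT7, a simple epithelial keratin, had 2.55 FPKM in shCBX7 and 1.15 FPKM in control libraries of 786-O. Of the 8, 3 (KRT17, KRT7 and PPARG) were higher with no overlap of the arms and GATA3 was lower, against 29.2% and 31.0% of all tested genes. KRT17 rested on 0 to 18 reads a library, and the urothelial genes KRT5 and UPK3A were at 0 in both arms. The 8 renal tubule markers summed to 35.5 to 36.5 FPKM in shCBX7 libraries and 43.2 to 45.8 FPKM in control libraries. PAX8 held most of it, and PAX8, PAX2 and CDH16 were lower with no overlap of the arms, while LHX1 and CUBN were higher, CUBN on 1 to 17 reads a library. The part of these marker lists in the rise of the interferon-stimulated genes was not tested.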

How the data were processed

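RNA-seq libraries of directional cDNA were made from 786-O and 5637 cells, per the labels' protocols. Per the file headers, the values the authors deposited are FPKM, in 1 table per line. The aligner, the counter and the strand setting were not given in the sources used here. The build in the submitters' processing notes is mm10, a mouse build, while the samples are human. The positions that the 786-O table gives for the 41 members are those of GENCODE release 29 (GRCh38). Titles and genotype labels gave the group of each library. The control columns of 5637 could be matched with their group, not with single samples. No pair of libraries of a line held identical values.

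Values were turned into log2(FPKM + 1). Genes whose mean reached 0.5 FPKM over the libraries of a fit were tested with limma 3.58.1 in R 4.3.3 (linear fit and moderated test, with the mean-variance trend on), shCBX7 minus control within each line, and called at a Benjamini-Hochberg adjusted p under 0.05 over all genes. The lines were compared by the interaction term over all 12 libraries, with genes matched by symbol. A fold change on this scale understates the change of low genes. Low FPKM values are whole multiples of 1 read, and whole reads were recovered for all 58735 genes of 786-O and for 28077 of 29890 (93.9%) of 5637 (tolerance 0.01). These reads gave the depth and served in an alternative test with voom, which called 3585 genes higher and 3662 lower of 13220 in 786-O and 3202 higher and 2605 lower of 11618 in 5637. The fits were tested on simulated data.

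The members, the lists of pathway genes and the marker lists were chosen with earlier results of these data known. Values in every library were to be given, per line, for the up to 8 called members with the largest rise and the up to 6 with the largest fall, for members called in both lines and for members with opposite signs in the lines that the interaction term called. 1 further gene of the pathway was left out of its lists and is not reported here. Values of other members and of pathway genes were added for their roles, with their values seen. Tests for raw counts were not used, as the files hold FPKM. Alternatives were fits with median centring, with quantile normalization, with a pseudocount of 0.1, without the filter on low values, without the mean-variance trend, with voom on recovered reads, with the replicate number as a block, and with 1 library left out at a time.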

Additional observations from a re-analysis of the deposited data

Results flagged for a closer look

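By the interaction term of limma, the change with shCBX7 differed between the lines for 32 of the 33 members tested in each line alone. All 32 were higher in 786-O, against 24.7% called higher and 32.4% called lower of the 10354 genes tested in both. With the members that entered through 1 line only, it differed for 38 of the 40 in the fit, against 53.3% of all 12777 genes. The values that follow are log2 changes in 786-O minus log2 changes in 5637, all with a limma adjusted p under 0.05 over 12777 genes. Among the RNA-binding effectors the difference was 2.03 for IFIT1, 1.25 for IFIT2, 1.74 for IFIT3, 0.47 for IFIT5 and 0.88 for OASL. For the IFITM membrane proteins it was 4.01 for IFITM1, 1.52 for IFITM2 and 1.47 for IFITM3. In the other IFI genes it was 2.15 for IFI27, 2.37 for IFI6, 1.25 for IFI35, 1.57 for IFI44 and 2.0 for IFI44L. Of the GTPases it was 1.69 for MX2. Within the ISG15 system it was 2.45 for ISG15, 1.19 for USP18, 0.95 for HERC5, 0.32 for HERC6 and 1.48 for UBE2L6. Over the transcription regulators it was 0.63 for IRF1, 2.21 for IRF7, 0.53 for IRF9, 0.30 for STAT2 and 1.05 for SP100. Among the PARP and DTX3L genes it came to 1.17 for PARP9, 0.38 for PARP14 and 0.38 for DTX3L. For the SAMD9 pair it came to 1.31 for SAMD9 and 0.96 for SAMD9L. In the other antiviral effectors it came to 1.11 for ISG20, 0.92 for RSAD2, 1.19 for CMPK2, 1.58 for BST2, 0.66 for TRIM21, 1.04 for TRIM22, 1.65 for PLSCR1 and 1.61 for EPSTI1. Of the chemokines it came to 2.25 for CXCL11. IFIT1, OASL, IFI27, IFI44L, RSAD2 and CMPK2 were under the filter in 5637, so their differences are close to their 786-O changes alone. The HERC6 difference rested on the scale and was not called with a pseudocount of 0.1 (0.07, limma adjusted p = 0.684) or with voom (-0.02, limma adjusted p = 0.931). The explanation of these differences was not tested. No group has over 3 libraries, so single libraries were not screened for distance from the rest.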

How the results depend on the processing

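Of the 38 members called higher in 786-O, 37 were called higher under every alternative, with STAT2 as the exception, and the count stayed between 37 and 38 with 1 library left out. The median log2 change of the tested members in 786-O was 1.27, and it was 1.42 with a pseudocount of 0.1 and 1.50 with voom on recovered reads (1.25 to 1.31 with 1 library left out). In 5637, 6 of the 9 called members kept their call under every alternative, and CXCL11, PLSCR1 and IRF9 did not. Voom called 9 members higher and 8 lower there, against 5 and 4 on log2(FPKM + 1). Over all genes voom called 3202 higher and 2605 lower of 11618, against 3094 and 2557 of 12689. Leaving out 1 library gave 4 to 6 members higher and 2 to 5 lower. The median of the members in 5637 lay between -0.02 and 0.01 with 1 library left out. For the difference between lines the median of 1.22 was 1.47 with a pseudocount of 0.1 and 1.43 with voom (1.20 to 1.26 with 1 library left out). Of its 38 called members, 37 kept their call under every alternative that gave them a value, and the HERC6 difference turned to -0.023 with voom. Voom called 35 of the 38, since ISG15 and IFI27, whose reads were not recovered in 5637, got no value there. The cause was not tested.

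Over all genes, 5704 to 6734 were called in 786-O with 1 library left out, against 6736, and 4678 to 5123 in 5637, against 5651. For the difference between lines the count was 6241 to 7126, against 6808. In 5637 the split of calls moved with the scaling, 3094 higher and 2557 lower as deposited, 2767 and 2885 with median centring, and 2815 and 2840 with quantile normalization. Deviations of same-numbered libraries correlated weakly, at 0.083, 0.077 and 0.057 in 786-O and at 0.023, -0.031 and -0.007 in 5637. In 786-O each library correlated best with its own number, and other pairs lay between -0.076 and 0.006, a hint from the data of a weak pairing. In 5637 not every library was best with its own number. With the replicate block, 38 members were called higher in 786-O, and 6 were higher and 5 lower in 5637, where PLSCR1 (limma adjusted p = 0.0752), JAK1 (0.0682), PIAS1 (0.0777) and PTPN6 (0.0676) were not called. Over all genes the block called 3261 higher and 3462 lower in 786-O and 2701 higher and 2241 lower in 5637. No block was fitted for the difference between lines. The filter on low values left MX1 and XAF1 in 786-O and 7 members in 5637 untested.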
